A study of Homo sapiens with 6 samples.

Results

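The cytosolic ribosomal protein genes encode the protein part of the ribosome outside mitochondria. They were taken from the deposited gene tables by symbol: RPL or RPS followed by a number, with an optional A, X or L suffix, together with RPLP0, RPLP1, RPLP2 and RPSA. The rule found 84 of the 20030 listed genes, 32 of the small subunit and 52 of the large subunit. Among them 7 are RP-like paralogs, which are separate genes whose products resemble a ribosomal protein (RPL3L, RPL7L1, RPL10L, RPL22L1, RPL26L1, RPL39L and RPS27L), and the other 77 are called canonical here. The symbols miss some genes of ribosomal proteins or close copies, of which FAU, RACK1 and RPL36AL are described separately.

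RNA-seq was performed on NCI-H929, which the labels give as multiple myeloma cells, with 3 libraries of IGF2BP1 knockdown cells (IGF2BP1-KD) and 3 libraries labelled as the IGF2BP1 negative control (IGF2BP1-NC). IGF2BP1 is an RNA-binding protein that reads N6-methyladenosine marks and stabilizes its target mRNAs. Knockdown used lentiviral shRNA in stable lines with a puromycin resistance vector. The authors list more than 1 target sequence and do not say which one these libraries carry, and the control construct is not described in the labels. The comparison asks which mRNAs change when IGF2BP1 is reduced. No label says that the 3 libraries of a group came from separate cultures, so the p-values measure the spread between these libraries, which may be technical.

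Total counts lay between 16885449 and 18112179 per library. Levels are given as CPM, which are counts scaled to a common library size with TMM factors. IGF2BP1 was at 431, 401 and 451 CPM in IGF2BP1-NC and at 123, 117 and 115 in IGF2BP1-KD. The groups did not overlap, and the log2 fold change was -1.85 (SE 0.07, adjusted p = 4.81e-08, edgeR's quasi-likelihood test, adjusted after Benjamini and Hochberg over all tested genes). Of 12 plasma cell markers, 3 were above 1 CPM in every library and 7 had at most 3 counts in every library (TNFRSF17, IRF4, CD38, POU2AF1, TNFRSF13B, FCRL5 and CD27), so the labelled cell type was not borne out by its markers. The summed plasma cell markers lay at 78.1 to 160 CPM in IGF2BP1-NC and 81.1 to 86.2 CPM in IGF2BP1-KD, and 1 of 5 tested rose. All 12 erythroid markers were above 1 CPM in every library, with none at 0 and a sum of 7549 to 9301 CPM in IGF2BP1-NC and 8627 to 9434 CPM in IGF2BP1-KD, and 1 of them rose and 5 fell, against 28.2% of all tested genes called in either direction. Of 7 granulocyte and monocyte markers and of 5 lymphocyte markers, 1 each was above 1 CPM in every library. The lymphocyte markers summed to 90.3 to 115 CPM in IGF2BP1-NC and 37.9 to 55.6 CPM in IGF2BP1-KD, with 1 of 2 tested falling, and the granulocyte and monocyte markers to 29.1 to 38.2 CPM and 37.0 to 60.9 CPM, with 1 of 3 tested rising. The part of these markers in the values below was not tested.

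A ribosome is assembled from a small subunit, which decodes the mRNA, and a large subunit, which forms the peptide bond, and most ribosomal proteins are present in equal numbers of copies. In vertebrates most of their mRNAs begin with a C followed by a run of pyrimidines, the 5′ terminal oligopyrimidine (TOP) motif, through which mTOR and LARP1 control their translation and stability as a group. Heterozygous loss of several of these genes causes Diamond-Blackfan anemia, a failure of red cell formation, and the free 5S particle (RPL5, RPL11 and 5S rRNA) binds and inhibits the ubiquitin ligase MDM2.

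The windows below show how some of the genes that carry the results begin. Each holds 15 bases before and 15 bases from the annotated start in RefSeq (GRCh38.p14), written 5′ to 3′ on the gene's strand, and capitals mark a run at the start of a C followed by at least 4 bases that are each C or T. Among genes not shown, RPL9, which rose, had no such run, and RPSA, with a negative fold change, had one. RPS27, RPL26 and RPL12 rose, and their windows are at chr1:153990747-153990776 (+), chr17:8383179-8383208 (-) and chr9:127451392-127451421 (-).
RPS27: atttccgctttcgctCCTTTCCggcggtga
RPL26: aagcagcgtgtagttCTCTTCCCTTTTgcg
RPL12: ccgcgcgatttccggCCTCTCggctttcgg
The paralogs RPS27L, which also rose, and RPL26L1 are shown against their parents above, at chr15:63157463-63157492 (-) and chr5:172958714-172958743 (+).
RPS27L: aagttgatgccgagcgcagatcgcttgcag
RPL26L1: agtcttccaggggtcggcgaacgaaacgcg
RPLP1 and RPL3 are canonical large subunit genes whose IGF2BP1-KD values all lay below the control values, and RPS26 had the most negative fold change, at chr15:69452803-69452832 (+), chr22:39319609-39319638 (-) and chr12:56041903-56041932 (+).
RPLP1: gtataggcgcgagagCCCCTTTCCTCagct
RPL3: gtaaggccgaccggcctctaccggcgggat
RPS26: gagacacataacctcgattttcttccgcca
TPT1 is a TOP mRNA of no ribosomal protein that rose, at chr13:45341169-45341198 (-).
TPT1: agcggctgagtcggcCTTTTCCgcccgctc

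A TOP run at the annotated start was present in 46 of the 62 canonical genes with an entry in the promoter table (74.2%), against 5.14% of all 27305 genes with an entry and 7.80% of those tested for expression. Of the RP-like paralogs with an entry, 1 of 5 had it. Annotated starts can lie a few bases from the true start. A run anywhere in the 30-base window was found in 93.5% of the canonical genes, 44.1% of all genes and 47.5% of those tested. The ETS core CCGGAA was read on both strands over the 300 bases from 250 before to 50 after the start. It was present in 56.5% of the canonical genes, against 20.1% of all genes and 35.7% of those tested for expression. The core was also present in 80.0% of the 5 RP-like paralogs and 53.3% of 15 TOP genes of no ribosomal protein. Between IGF2BP1-KD and IGF2BP1-NC, the median log2 fold change was 0.04 in the 46 canonical genes with a run at the start, of which 3 were called, and 0.03 in the 16 genes without it, of which 1 was called, against 28.2% of all tested genes. The difference between these medians was not tested.

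Ribosomal protein genes were among the most abundant mRNAs of these cells and covered a wide range of levels. By FPKM, which divides by gene length, the 77 canonical genes had a median of 997 in IGF2BP1-NC, against 8.16 over all tested genes, with means from 4.62 to 4786. The highest were RPS18 (4786 ± 213 FPKM, SD, n = 3), RPLP1 (3380 ± 297), RPS2, RPLP0 and RPS12. RPS18 sits in the head of the small subunit, RPS2 and RPS12 are small subunit proteins, and RPLP0 and RPLP1 form the P stalk, the arm of the large subunit that recruits translation factors. Small and large subunit genes had similar levels, with medians of 999 FPKM over 30 genes and 1043 FPKM over 44 genes when 3 genes discussed next were left out.

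**Figure D1:**
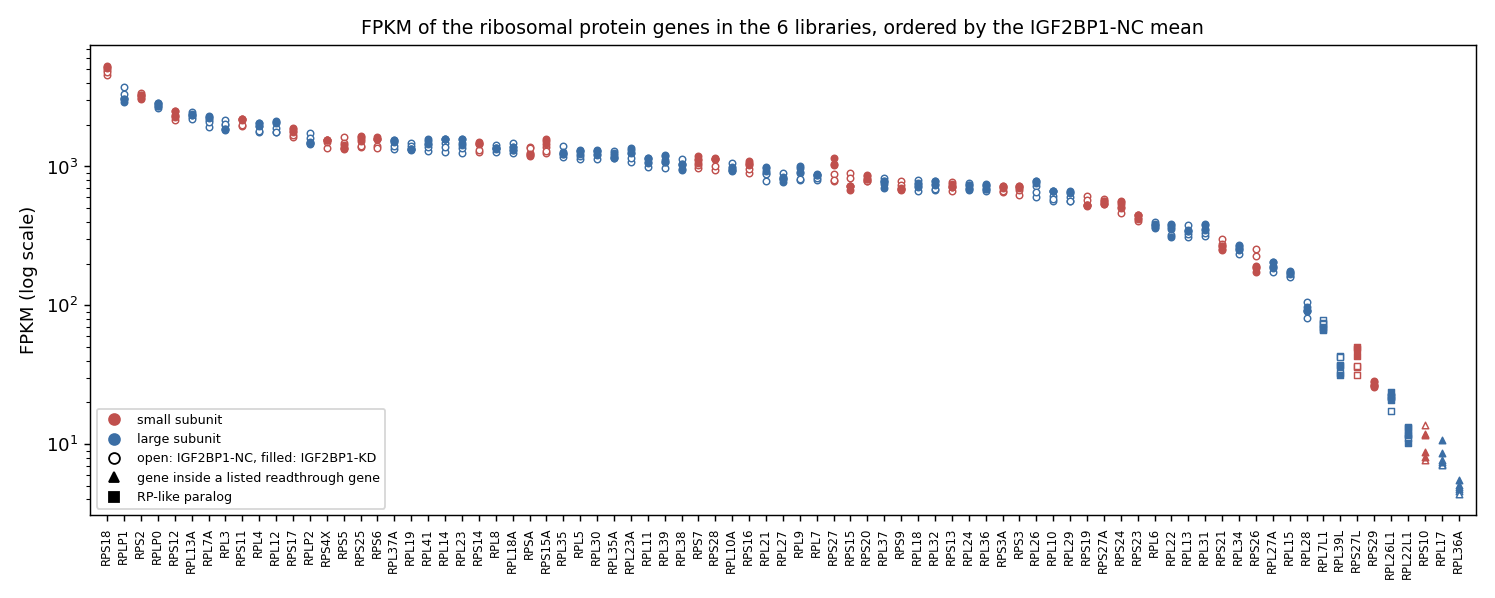
FPKM (log scale) of 81 genes with a mean above 1 FPKM in IGF2BP1-NC, ordered by that mean, with 1 point per library, open for IGF2BP1-NC and filled for IGF2BP1-KD. RPS18 stands at the left with a mean of 4786 FPKM. The loci of RPS10, RPL17 and RPL36A (triangles) are also covered by listed readthrough genes. They stand at the right with IGF2BP1-NC means below 12 FPKM, with RP-like paralogs (squares) nearby. RPS10 reached 13.7 FPKM in IGF2BP1-NC 2.

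The lowest canonical genes were RPL36A, RPL17 and RPS10. RPL36A was at 4.62 ± 0.251 FPKM, RPL17 at 7.34 ± 0.346 and RPS10 at 11.1 ± 3.09 in IGF2BP1-NC, although each encodes a core ribosomal protein. They are the 3 canonical genes whose loci are also covered by a readthrough gene in the table (RPL36A-HNRNPH2, RPL17-C18orf32 and RPS10-NUDT3), and these readthrough genes had 0 counts in every library, which allows up to 3 counts each. How reads shared between such genes were assigned is not given in the sources used here, so the levels and changes of these 3 genes are uncertain. RPS29 (26.9 FPKM) and RPL28 (92.3 FPKM) followed, and the gene lengths implied by their FPKM were 7517 and 9334 bases, against a median of 970 bases over the canonical genes.

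Because FPKM is divided by that length, a long implied length lowers it by construction. Across the 77 canonical genes, which share libraries and are not independent replicates, the number of annotated processed or other pseudogenes named after a gene had Pearson's r = -0.15 with log2 FPKM. Without RPL36A, RPL17 and RPS10 this r was -0.03 over 74 genes. Each canonical gene had at least 4 such pseudogenes, with a median of 17 and a highest number of 137, for RPL21. Reads on near-identical copies have an unknown assignment, so all levels here carry that uncertainty. The fold change had r = 0.03 with log2 FPKM, -0.06 with log2 length and 0.19 with the pseudogene number. The 84 genes are spread over 21 chromosomes, with 12 on chromosome 19.

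As a group, ribosomal protein genes took about the same share of the counts in both groups. They held 7.79%, 8.79% and 8.16% of the counts in IGF2BP1-NC and 8.45%, 8.65% and 8.56% in IGF2BP1-KD. The knockdown libraries lay within the range of the control libraries, and the means were 8.25 ± 0.508% and 8.55 ± 0.103% (SD, n = 3). Small subunit genes made up 39.5 ± 0.119% of the ribosomal protein counts in IGF2BP1-NC and 39.6 ± 0.101% in IGF2BP1-KD, so the balance of the subunits differed by less than the spread between libraries. A share of counts is relative to the other mRNAs of the library, and in such bulk samples fewer cells of a type and less RNA per cell cannot be told apart.

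**Figure D2:**
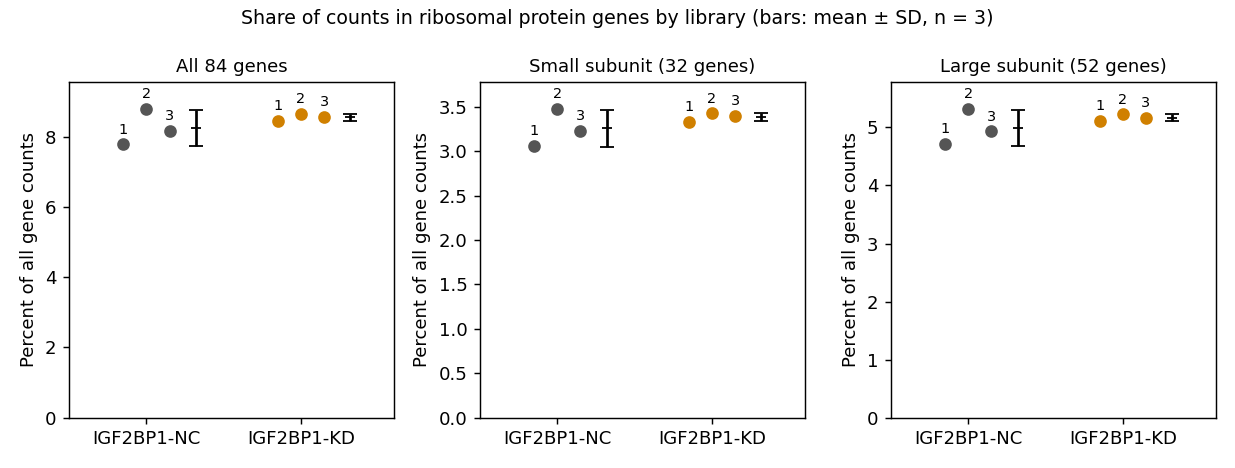
Percent of each library's gene counts in all 84 ribosomal protein genes, the 32 small subunit genes and the 52 large subunit genes, with 1 numbered point per library and the mean ± SD (n = 3) beside it. In each panel the 3 IGF2BP1-KD libraries lie between the lowest and the highest IGF2BP1-NC library, from 8.45% to 8.65% for all genes.

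The control libraries differed from each other in nearly all of these genes together. In the tested genes, IGF2BP1-NC 1 was below its group mean in 78 of 82, by a median of 0.11 on the log2 scale, and IGF2BP1-NC 2 was above it in 81 of 82, by a median of 0.11. IGF2BP1-NC 1 was the lowest control library for 77 genes and IGF2BP1-NC 2 the highest for 78. The medians were -0.00 in IGF2BP1-NC 3 and between -0.02 and 0.02 in the IGF2BP1-KD libraries. Over the 11912 other tested genes the medians were within 0.01 of 0 in every library. Abundant other genes were taken at or above the 5th percentile of the canonical genes' mean log2 CPM, without matching abundance above it. Of these, 29 genes up to 1000 bases long, by the length implied by FPKM, had medians of -0.12 in IGF2BP1-NC 1 and 0.11 in IGF2BP1-NC 2. For 492 of them over 3000 bases long these were -0.03 and -0.01. Between the groups these 29 short genes had a median log2 fold change of -0.12, against 0.05 in the ribosomal protein genes. The part of gene length in the library shift was not tested.

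**Figure D3:**
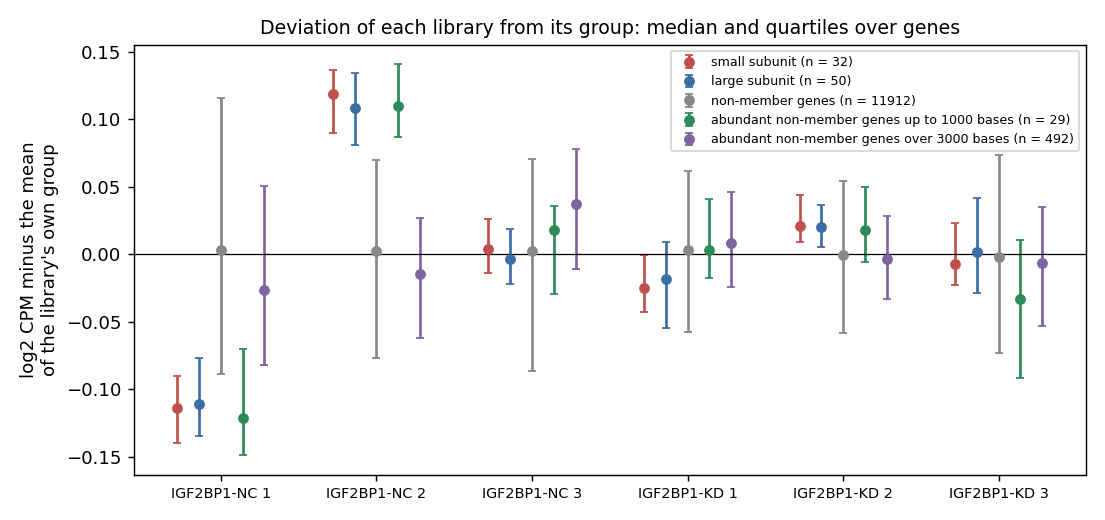
Deviation of log2 CPM from the mean of the library's own group, as the median (point) and quartiles (bars) over the genes of each class, for the 6 libraries. Small and large subunit genes sat near -0.11 in IGF2BP1-NC 1 and near 0.11 in IGF2BP1-NC 2, with the 29 short abundant other genes beside them, and near 0 in the other libraries.

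Between the groups, ribosomal protein genes moved little and about alike in both subunits. RPS27L and RPS27 rose 1.36-fold and 1.29-fold and held this call in each of 6 tests with a library left out under the same scaling, 5 further genes rose 1.14-fold to 1.17-fold, and no gene was called lower. RPL3L and RPL10L, paralogs with at most 2 and 1 counts in any library, did not pass the filter on low counts, which left 82 genes. At an adjusted p under 0.05, 7 of 82 were higher, against 13.7% of all tested genes, and 0 were lower, against 14.5% of all tested genes (edgeR's quasi-likelihood test, adjusted after Benjamini and Hochberg over all tested genes). At an unadjusted p under 0.05, 11 were higher and 6 lower, against 20.1% and 20.7% of all tested genes. DESeq2 called 3 genes lower, against 12.7% of all genes it tested, and limma-voom 2, against 14.1%.

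The spread of the fold changes was narrow. The median log2 fold change was 0.05, against -0.00 over all 11994 tested genes, with quartiles of -0.04 and 0.13. The SD over genes was 0.13, against 0.51 over all tested genes. A total of 74 genes (90.2%) lay within 0.2 of 0, against 51.7% of all tested genes and 63.6% of 744 other genes above an abundance minimum. That minimum was the 5th percentile of the canonical genes' mean log2 CPM, and abundance above it was not matched. The 95% interval lay inside 0.5 in either direction for 77 of the 82.

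The 32 small subunit genes had a median log2 fold change of 0.06 (range -0.29 to 0.44), with 4 called higher. The 50 tested large subunit genes had a median of 0.04 (range -0.18 to 0.27), with 3 called higher. The medians differed by 0.02, and genes are not replicates, so no test was made of this difference. In 33 of the 82 genes all 3 IGF2BP1-KD values lay between the lowest and highest control value. No share of all tested genes is given for this pattern, so that number has no baseline. The groups did not overlap in 13 genes that were higher and 4 that were lower in IGF2BP1-KD, against 22.4% and 23.2% of all tested genes.

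**Figure D4:**
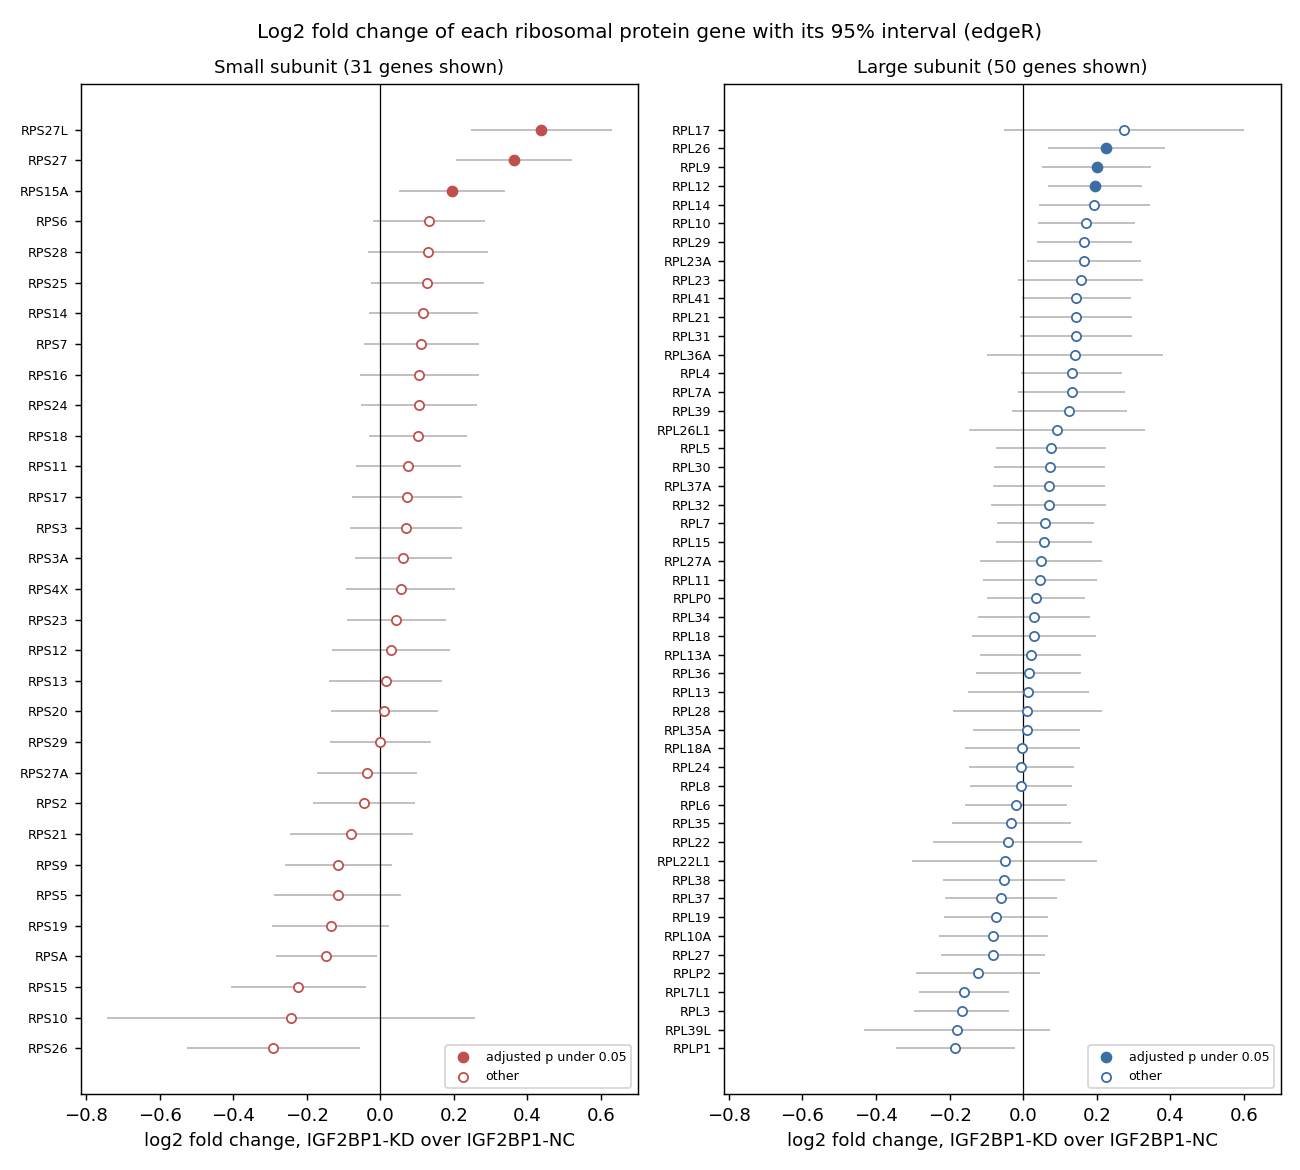
Log2 fold change (IGF2BP1-KD over IGF2BP1-NC) of 31 small and 50 large subunit genes, ordered within each subunit, with 95% intervals from edgeR and filled points for an adjusted p under 0.05. The 3 filled small subunit genes and 3 filled large subunit genes are all to the right of 0, and most points lie within 0.2 of it.

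RPS27 and RPS27L are a parent and a paralog that encode nearly alike zinc-binding proteins of the small subunit. RPS27 (chromosome 1, 153990762 to 153992155, + strand, GENCODE release 44 on GRCh38) was at 551, 639 and 576 CPM in IGF2BP1-NC and at 725, 740 and 808 CPM in IGF2BP1-KD. Every knockdown library was above every control library. The log2 fold change was 0.36 (SE 0.07, 95% interval 0.21 to 0.52, adjusted p = 0.00386, edgeR), a fold of 1.29.

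RPS27L (chromosome 15, 63125872 to 63158021, - strand) was at 33.7, 39.4 and 39.8 CPM in IGF2BP1-NC and at 47.1, 53.8 and 52.1 CPM in IGF2BP1-KD. The groups again did not overlap. The log2 fold change was 0.44 (SE 0.09, 95% interval 0.25 to 0.63, adjusted p = 0.00424, edgeR), a fold of 1.36. Per length, RPS27L made up 4.03 ± 0.271% of the FPKM of the pair in IGF2BP1-NC and 4.24 ± 0.275% in IGF2BP1-KD, so its share of the pair differed by less than the spread between libraries.

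RPS27 and RPS27L kept an adjusted p under 0.05 in 6 of 6 tests with 1 library left out, under the same TMM scaling, with log2 fold changes of 0.32 to 0.43 and 0.37 to 0.50. The other 5 genes called higher kept it in 1 or 2 of these 6.

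RPL26, a protein at the exit of the peptide tunnel, was at 576, 700 and 637 CPM in IGF2BP1-NC and at 733, 758 and 748 CPM in IGF2BP1-KD. Its lowest knockdown library was above the highest control library, IGF2BP1-NC 2. The log2 fold change was 0.23 (95% interval 0.07 to 0.39, adjusted p = 0.0377, edgeR).

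RPL12, which sits at the base of the P stalk, was at 1159, 1256 and 1187 CPM in IGF2BP1-NC and at 1352, 1377 and 1396 CPM in IGF2BP1-KD. The groups did not overlap, and the log2 fold change was 0.20 (adjusted p = 0.0272, edgeR). RPL9, a large subunit protein near the factor-binding site, rose by a log2 fold change of 0.20 (adjusted p = 0.0458, edgeR). RPS15A, of the small subunit, rose by 0.19 (adjusted p = 0.0455, edgeR), without overlap of the groups.

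**Figure D5:**
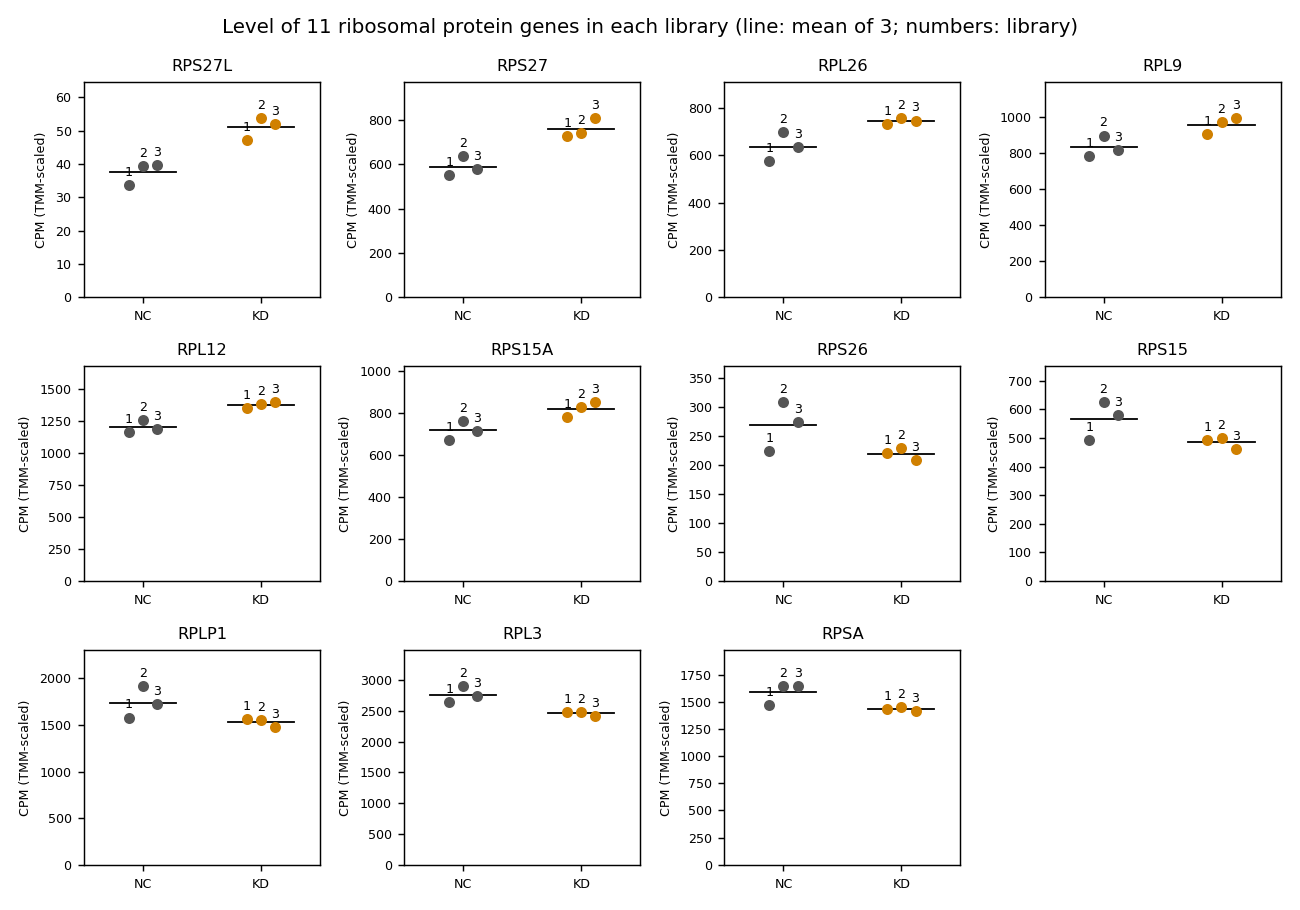
CPM on TMM-scaled library sizes for 11 ribosomal protein genes, with 1 numbered point per library and a line at the mean of 3, the axes starting at 0. The 6 genes from RPS27L to RPS15A, all called higher, had every IGF2BP1-KD library above every IGF2BP1-NC library, and in RPS26 and RPS15 the knockdown values overlapped those of IGF2BP1-NC 1.

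The genes with the most negative fold changes did not pass the adjusted test. RPS26, which lines the path by which mRNA leaves the small subunit, was at 224, 309 and 275 CPM in IGF2BP1-NC and at 222, 229 and 209 CPM in IGF2BP1-KD. IGF2BP1-NC 1 lay among the knockdown libraries and the other two controls lay above them (log2 fold change -0.29, 95% interval -0.53 to -0.06, adjusted p = 0.0649, edgeR). RPS10, whose level is uncertain as described above, had a log2 fold change of -0.24 (adjusted p = 0.455, edgeR). RPS15, in the head of the small subunit, had a log2 fold change of -0.22 (adjusted p = 0.0690, edgeR).

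RPL3, near the peptidyl transferase centre, was at 2638, 2903 and 2739 CPM in IGF2BP1-NC and at 2484, 2471 and 2418 CPM in IGF2BP1-KD. All knockdown libraries were below all control libraries (log2 fold change -0.17, 95% interval -0.30 to -0.04, adjusted p = 0.0545, edgeR). RPLP1 was at 1579, 1919 and 1719 CPM in IGF2BP1-NC and at 1558, 1553 and 1481 CPM in IGF2BP1-KD (log2 fold change -0.18, adjusted p = 0.0832, edgeR), also without overlap. RPSA had a log2 fold change of -0.15 (adjusted p = 0.105, edgeR) and RPL7L1 one of -0.16 (adjusted p = 0.0521, edgeR). That of RPL39L was -0.18 (adjusted p = 0.269, edgeR).

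The number of calls depended on the libraries used. Without IGF2BP1-NC 1, 4 genes were higher and 10 lower, against 15.8% and 16.9% of all tested genes. Without IGF2BP1-NC 2, 14 were higher and 0 lower, against 9.5% and 10.2%. Leaving out any of the other 4 libraries left 2 higher and 0 lower, where 9.42% to 11% of all tested genes were higher and 9.44% to 11.8% lower. The median log2 fold change of all 82 genes ranged from -0.01 to 0.10 over these 6 tests, and the difference in share of counts ranged from 0.0760 to 0.579 percentage points.

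To compare the genes with each other apart from that shared shift, the libraries were also scaled to the ribosomal protein genes themselves, an alternative chosen after seeing the data. This scaling sets the centre of the group near 0 by construction, so it shows only how single genes differ from the rest of the group. Its factors come from the tested genes themselves, so their shared spread between libraries is also taken out before the p-values are computed. Under it 5 genes were higher and 6 lower, against 8.48% and 13.6% of all tested genes, or 11 in either direction against 22.1%. RPS27L (log2 fold change 0.40), RPS27 (0.32) and RPL26 (0.19) were among the genes higher in this fit and in the main one, with RPL14 (0.15) added and RPL12, RPL9 and RPS15A dropped. With 1 library left out under this scaling, RPS27 kept the call in 6 of 6 tests, RPS27L in 5 (adjusted p = 0.0627 without IGF2BP1-KD 2, edgeR), and RPL26 and RPL14 in 1 each.

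The 6 genes that were lower relative to the rest of the group were RPS26 (log2 fold change -0.33, adjusted p = 0.0140, edgeR), RPS15 (-0.26), RPLP1 (-0.22), RPL3 (-0.21, adjusted p = 0.00702, edgeR), RPSA (-0.19) and RPS19 (-0.17). RPS19 acts in the maturation of the small subunit rRNA and RPSA lies on its mRNA exit side. With 1 library left out in turn, RPLP1 and RPL3 kept the call in 6 of 6 tests, RPS26 in 4, RPS15 and RPSA in 3 and RPS19 in 2. Over these 6 tests 1 to 5 genes were higher and 2 to 8 lower, where 4.68% to 14.2% of all tested genes were higher and 6.97% to 16.9% lower.

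By role, the P stalk held genes on either side of 0. RPL12 rose, RPLP0 had a log2 fold change of 0.04, RPLP2 one of -0.12 and RPLP1 one of -0.18, and none of these 3 passed the main test. In the 5S particle, RPL5 (0.08) and RPL11 (0.04) were not called. Of 14 genes of the small subunit head 0 were called, with a median log2 fold change of 0.02, and of 8 genes around the tunnel exit RPL26 was called, with a median of 0.14, against 28.2% of all tested genes called.

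The 18 Diamond-Blackfan anemia genes had 3 called higher (RPS27, RPL26 and RPS15A), 0 called lower and a median log2 fold change of 0.05, beside 13.7% and 14.5% of all tested genes. Of the other 59 canonical genes 3 were called higher, with a median of 0.05. Between the start and end of 28 genes lie small nucleolar RNA genes on the same strand, 60 in all. These 28 had 2 genes called higher and a median of 0.07. The 54 other ribosomal protein genes tested had 5 called higher and a median of 0.03, beside 13.7% of all tested genes called higher. Of the 3 genes described from outside the symbol rule 0 were called, with log2 fold changes of -0.02 for FAU, 0.07 for RACK1 and 0.03 for RPL36AL.

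The RP-like paralogs were low beside their parents. RPL7L1 made up 8.35 ± 0.549% of the FPKM of RPL7L1 and RPL7 together in IGF2BP1-NC and 7.23 ± 0.060% in IGF2BP1-KD. The shares did not overlap, at 8.97%, 7.94% and 8.14% against 7.20%, 7.19% and 7.30%, with a two-sided exact permutation p of 0.1, the smallest that 3 against 3 allows (0.7 after Benjamini-Hochberg adjustment over 7 pairs). RPL39L went from 3.64 ± 0.657% to 2.94 ± 0.10% of its pair with RPL39, RPL26L1 from 3.01 ± 0.234% to 2.76 ± 0.179% of its pair with RPL26, and RPL22L1 from 3.26 ± 0.105% to 3.24 ± 0.103% of its pair with RPL22. In these 3 pairs the shares overlapped between the groups. RPL3L and RPL10L, which are known from striated muscle and testis, stayed at or under 3 counts in every library.

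Of 21 TOP mRNAs that encode no ribosomal protein, 2 rose and 2 fell, with a median log2 fold change of -0.02, against 28.2% of all tested genes called in either direction. TPT1, a tumour protein that binds tubulin and is a classical TOP mRNA, was at 949, 1137 and 1089 CPM in IGF2BP1-NC and at 1391, 1435 and 1521 CPM in IGF2BP1-KD, with a log2 fold change of 0.45 (adjusted p = 0.00144, edgeR) and no overlap. EIF4A2, an RNA helicase of translation initiation, rose by 0.31, and EIF3K, a subunit of initiation factor 3, and NAP1L1, a histone chaperone, had log2 fold changes of -0.25 and -0.25. With 1 library left out, TPT1 and EIF4A2 kept the call in 6 of 6 tests, NAP1L1 in 4 and EIF3K in 1.

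Of 15 regulators of TOP mRNAs 14 were tested, and 2 rose and 1 fell, against 28.2% of all tested genes called in either direction. LARP4, a poly(A)-binding protein that stabilizes mRNAs, had a log2 fold change of 0.44 (adjusted p = 0.000287, edgeR), RHEB, the GTPase that activates mTOR, 0.22, and EIF4EBP1, the translation repressor that mTOR phosphorylates, -0.29. With 1 library left out, LARP4 kept the call in 6 of 6 tests, RHEB in 4 and EIF4EBP1 in 1. LARP1 itself was at -0.05 and MTOR at 0.14, and neither passed the test. DEPTOR, at no more than 8 counts in any library, was not tested. Of 15 chaperones and assembly factors of ribosomal proteins 0 rose and 2 fell (NOB1 at -0.25 and NAP1L1), with a median of -0.05, against 14.5% of all tested genes called lower.

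Downstream of the free 5S particle and MDM2, CDKN1A, the cell cycle inhibitor p21, fell. It had 1110, 515 and 626 counts in IGF2BP1-NC and 217, 248 and 303 in IGF2BP1-KD, with a log2 fold change of -1.54 (SE 0.35, adjusted p = 0.0292, edgeR). The groups did not overlap, the highest value was that of IGF2BP1-NC 1, and the call held in 2 of 6 tests with a library left out. MDM2 (0.05), MDM4 (-0.03) and BBC3 (-0.47) did not pass the test. BBC3 had 1225, 459 and 574 counts in IGF2BP1-NC and 547, 541 and 528 in IGF2BP1-KD. Only IGF2BP1-NC 1 was far above the knockdown libraries, and IGF2BP1-NC 2 was below them. Of the 5 genes in this list 1 was called, against 28.2% of all tested genes.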

How the data were processed

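RNA-seq of 6 libraries, 3 labelled IGF2BP1-KD and 3 IGF2BP1-NC, was analysed from 2 deposited tables. The authors used Trimmomatic for trimming, HISAT2 for mapping to GRCh38 and HTSeq-count for the whole-number counts per gene that they deposited. The FPKM values they deposited are described as made with Cufflinks. They match each count over its library's total and a constant length per gene. That length was implied by these same values and was not compared with an annotation. All gene lengths given here are such implied lengths. Versions, strand setting and annotation release are not given in the sources used here. A stranded kit was named for the libraries. A count of 0 allows up to 3 counts, and intervals and floors cover counting error only.

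Counts were tested in R 4.3.3 with edgeR 4.0.16 (TMM, filterByExpr, robust glmQLFit, two-sided glmQLFTest) over 11994 genes, with Benjamini-Hochberg adjustment and calls at an adjusted p under 0.05. Alternatives used DESeq2 1.42.0, voom and trend of limma 3.58.1 on log2(FPKM + 1) or log2(FPKM + 0.1), other factors and filters, a replicate block, and each library left out. The script was tested on simulated data. Tables and figures were made with Python 3.11.15, pandas 2.3.3, scipy 1.17.1 and matplotlib 3.10.9. Gene positions and small nucleolar RNA genes came from GENCODE release 44, pseudogenes from RefSeq, and start windows from RefSeq (GRCh38.p14). The rule for the genes named took the targeted gene, the 8 strongest rises and 8 strongest falls among ribosomal protein genes called, the 5 highest and 5 lowest by FPKM, paralogs with their parents, role groups, and up to 4 called genes of each other list. RPS15, RPS26, RPSA, RPS19, RPL14, RPL21, RPL28, RPS29 and the genes not called in the lists of regulators and of CDKN1A and MDM2 were named after their values were seen. Some genes counted here are not reported by name or plotted. The genes and lists were chosen with earlier results of these data known.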

Additional observations from a re-analysis of the deposited data

How the results depend on the processing

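The number of ribosomal protein genes called higher (7) was 10 with DESeq2, library size alone, upper-quartile factors or at least 10 counts in every library. It was also 10 with limma on log2(FPKM + 1) or log2(FPKM + 0.1). It was 9 with limma-voom and with TMM factors without these genes, and 6 without a filter on low counts. Limma on log2(FPKM + 1) without a filter gave 2, and a fold of at least 1.5 gave 0. An unadjusted p gave 11 (20.1% of all tested genes), and 1 library left out gave 2 to 14 (9.42% to 15.8%). The number called lower (0) was 3 with DESeq2 (12.7% of all genes it tested) and 2 with limma-voom (14.1%). It was 1 with library size alone, 1 without a filter on low counts and 6 at an unadjusted p (20.7%). With 1 library left out it was 0 to 10 (9.44% to 16.9%). Scaling to the ribosomal protein genes, chosen after seeing the data, gave 6 lower (13.6%). With 1 library left out under it 1 to 5 were higher (4.68% to 14.2%) and 2 to 8 lower (6.97% to 16.9%). Counts printed without a percentage, here and in the lists below, have no share of all tested genes beside them and so no baseline. A fold of at least 1.5 left 0 calls among other TOP mRNAs (4 in the report), TOP regulators (3) and chaperones (2). TOP regulators had 1 call under the scaling to ribosomal protein genes, 5 at an unadjusted p and 1 to 4 with 1 library left out. Chaperones had 4 with library size alone, 4 with upper-quartile factors, 4 with at least 10 counts in every library, 1 with unfiltered FPKM, 7 at an unadjusted p, and 0 to 6 with 1 library left out. The list with CDKN1A and MDM2 (1) had 0 without a filter on low counts and 0 to 1 with 1 library left out. The difference between the subunit medians (0.02) was 0.00219 to 0.0219 with 1 library left out. The cause of these shifts was not tested. Same-numbered libraries of the 2 groups did not deviate together (correlations -0.05, 0.04 and -0.11, with 1 number of 3 best matched to itself). These values show no pairing by number, but 3 libraries per group are too few to exclude one. With a replicate block 3 ribosomal protein genes were higher, 1 lower and 0 called in the list with CDKN1A. RPS27 and RPS27L kept their direction and an adjusted p under 0.05 in the 11 other normalizations, filters and tests and in 6 of 6 tests with 1 library left out, but neither reached a fold of 1.5, and RPS27L missed the threshold in 1 of 6 such tests under the scaling to ribosomal protein genes.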
